A study of Mus musculus with 16 samples.

Results

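Mgmt, Smim20, Cers4, Zdhhc2, Ntpcr, Neil3, Fam149a, Cyba, Tmem184c and Aspg are 10 of the 37149 mouse genes tested on these arrays. They were picked from earlier results of the same data as genes with low signal in Sp1-/- cells at every stage, so the difference between the genotypes is what chose them. It is given for them as a description with no test. For 9 of the 10 genes the label held in all 4 cell populations. For Aspg it did not, because the gene was called lower in Flk1+ cells and in neither HE1 nor HE2, and its call in progenitors depended on the background correction.

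Embryonic stem (ES) cells were differentiated in vitro toward blood, and RNA of 4 successive populations was hybridized to one-color Agilent arrays. The populations were Flk1+ cells, KIT+ Tie2+ CD41- hemogenic endothelium (HE1), KIT+ Tie2+ CD41+ hemogenic endothelium (HE2) and KIT+ Tie2- CD41+ progenitors. Each was taken from Sp1+/+ wild type and from Sp1-/- knock-out cells, with 2 arrays for each of the 8 groups and 16 arrays in all. All groups derive from mouse ES cells with the strain label C57BL/6 and received no further treatment that the labels name. The titles call the Sp1+/+ cells E14, which is generally known as a line of another strain, and the Sp1-/- cells SP1KO. The sources used here do not settle the strain of either line. The Sp1-/- line is a single ES cell clone, and what remains of Sp1 in it is a shortened protein that lacks the part binding DNA. Values are the deposited normalized log2 intensities. The arrays of the 2 genotypes lay on separate slides, and by their titles each genotype came from its own cell line. No Sp1-/- line with Sp1 restored was on these arrays. The effects of the slide and of the line or clone therefore cannot be told apart from that of the genotype. This holds for every difference between the genotypes given here. The sources differ on whether replicates were biological or technical, so that each SD and p measures the spread between these samples, which may be technical.

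Sp1 is a zinc finger transcription factor that binds GC-rich elements, the GC boxes, in the promoters of many genes that most cells express. The genes described here have no common pathway. Mgmt encodes the enzyme that removes alkyl groups from guanine in DNA, and Neil3 encodes a DNA glycosylase that starts the repair of oxidized bases. Smim20 encodes a small mitochondrial protein needed for the assembly of cytochrome c oxidase, Cers4 a ceramide synthase, and Zdhhc2 an enzyme that attaches palmitate to proteins. Ntpcr encodes a nucleoside triphosphatase, and Cyba the membrane subunit p22phox of the NADPH oxidases. Aspg encodes an asparaginase, whereas the functions of Fam149a and Tmem184c are little known.

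Promoter sequences are shown because Sp1, whose DNA-binding part the Sp1-/- cells lack, acts at promoters, among other sites. Sites away from promoters were not searched. They come from RefSeq's start sites on GRCm38.p6 and run from 250 bases before to 50 bases after the start. Of the 10 genes, 9 had a window in that table, with 11 windows in all because Mgmt and Tmem184c have more than 1 start. Zdhhc2 had none. The letters GGGCGG, the core of the GC box, were searched on both strands, so that the reverse strand reads CCGCCC. Matches may overlap. The windows printed are those of Mgmt, the gene with the largest drop and the most matches, of Neil3 and Cyba, and of Fam149a, which had no match. Capitals mark the GC box letters. Mgmt is shown at chr7:136894336-136894635 on the plus strand, Neil3 at chr8:53639016-53639315 on the minus strand, Cyba at chr8:122432891-122433190 on the minus strand and Fam149a at chr8:45382242-45382541 on the minus strand.
Mgmt: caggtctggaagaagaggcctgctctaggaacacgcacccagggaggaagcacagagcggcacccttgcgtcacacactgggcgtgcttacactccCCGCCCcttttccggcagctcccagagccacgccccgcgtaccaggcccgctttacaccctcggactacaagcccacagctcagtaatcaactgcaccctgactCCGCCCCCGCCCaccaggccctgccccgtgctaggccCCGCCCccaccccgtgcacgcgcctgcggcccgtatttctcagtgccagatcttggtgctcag
Neil3: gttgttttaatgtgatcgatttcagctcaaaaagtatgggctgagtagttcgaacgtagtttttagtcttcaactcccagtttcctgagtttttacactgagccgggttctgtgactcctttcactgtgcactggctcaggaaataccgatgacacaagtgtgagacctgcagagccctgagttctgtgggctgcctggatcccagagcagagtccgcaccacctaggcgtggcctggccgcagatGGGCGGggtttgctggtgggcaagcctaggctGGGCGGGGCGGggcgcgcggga
Cyba: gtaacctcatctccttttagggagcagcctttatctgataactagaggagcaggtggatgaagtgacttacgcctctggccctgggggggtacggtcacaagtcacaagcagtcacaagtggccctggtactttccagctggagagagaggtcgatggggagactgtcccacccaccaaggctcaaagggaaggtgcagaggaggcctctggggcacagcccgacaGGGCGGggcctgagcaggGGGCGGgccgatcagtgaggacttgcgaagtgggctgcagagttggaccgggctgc
Fam149a: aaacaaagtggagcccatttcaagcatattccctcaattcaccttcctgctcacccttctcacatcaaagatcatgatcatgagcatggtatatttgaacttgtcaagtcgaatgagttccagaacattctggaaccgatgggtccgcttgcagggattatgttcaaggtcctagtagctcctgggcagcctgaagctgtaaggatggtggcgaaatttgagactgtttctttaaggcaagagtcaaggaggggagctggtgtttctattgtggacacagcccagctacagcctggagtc

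The Mgmt window held 4 matches, all on the reverse strand, and the window at its other start site held 0. The Neil3 window held 3 matches, of which 1 lay just before the start site and the remainder after it. The windows of Ntpcr and Cyba held 2 each, and those of Smim20, Cers4, Aspg and 1 of the Tmem184c start sites held 1 each. In all, 8 of the 11 windows held the letters, against 35.7% of the 32851 windows in the table and 36.9% of the 1442 windows on chromosome 8. Bases G and C made up 54.3% (Tmem184c) to 66.3% (Mgmt) of those 8 windows, against a median of 52.7% over all windows. All windows in the table were counted, whether or not these cells express the gene. Windows of like GC content were not compared. A match is a description of the letters and no binding site, and the window of Fam149a shows only that these letters were not in it. Binding of Sp1 was not analysed here.

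By the scanner's flags, 67.0% to 77.1% of spots were well above background and 0 were saturated. Replicates correlated at 0.990 to 0.998 across probes, with the largest median SD, 0.13, in Sp1-/- HE1. The genes behind the sorting gates (Kdr for Flk1, Kit, Tek for Tie2 and Itga2b for CD41) were well above background on all 16 arrays. This includes populations sorted as negative for the protein, so it does not check the sorts. Mean Itga2b was 10.605 (Sp1+/+) and 11.045 (Sp1-/-) in HE1, and mean Tek 9.01 and 7.97 in progenitors. In Sp1-/- progenitors Kit (log2 difference -1.23), the endothelial marker Cdh5 (-2.40) and the fibroblast markers Col1a1 (-4.70) and Col1a2 (-3.32) were called lower. The summed log2 intensity there was 19.12 against 21.70 in Sp1+/+ progenitors for the 2 endothelial markers and 29.08 against 37.93 for the 4 fibroblast markers, of which Pdgfra was not well above background on either Sp1-/- array. Further marker calls were higher Actc1 (3.15 and 3.23) in Flk1+ cells and HE1 and higher Tnnt2 (1.43) and Runx1 (1.55) in HE1, lower Myh6 (-1.20) and Thy1 (-1.37) in Flk1+ cells, and higher Ptprc in HE2 and progenitors. Neither of the pluripotency markers Pou5f1 and Nanog was called. The part of other cells in the values of the 10 genes was not tested. In bulk RNA, fewer cells of a type and less RNA per cell cannot be told apart.

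The Sp1 probe was checked first. Its log2 intensity in Sp1+/+ cells was 12.53 and 12.56 (Flk1+), 12.39 and 12.42 (HE1), 12.14 and 12.48 (HE2) and 12.16 and 12.33 (progenitors). On the Sp1-/- arrays it was 10.29 and 10.25, 9.03 and 9.22, 9.44 and 10.06, and 9.29 and 9.41. All 8 Sp1-/- arrays lay below all 8 Sp1+/+ arrays, in the direction of the labels, but all remained well above background. Where the probe lies relative to the disrupted part of the gene is not given in the sources used here.

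A gene was called where limma's p was at most 0.01 and the change was 2-fold or more. Both thresholds are those of the methods, which do not say whether p was adjusted, and the unadjusted p was used here. By that rule 10 of the 10 genes were called lower in Sp1-/- Flk1+ cells, where 0.867% of all genes tested were. In HE1, HE2 and progenitors 9 of 10 were, where 1.13%, 1.17% and 2.6% of all genes were. The same 9 genes were called in all 4 populations, against 83 genes or 0.223% of those tested. These counts follow from how the genes were chosen. The median log2 difference of the 10 genes was -1.87 (Flk1+), -2.07 (HE1), -2.03 (HE2) and -2.04 (progenitors), and that of all genes tested lay between 0.01 and 0.02. Just inside the threshold was Cyba in Flk1+ cells, at -1.14, and just outside was Aspg in progenitors, at -0.97. Aspg was called there with an offset of 16 in the background correction, the value the methods name (-1.24), without background correction (-1.14) and with the processed signal (-1.40), which made 10 of 10 genes in progenitors. The background share in HE1 depended on 1 array, since 747 genes in place of 418 were called lower there without Sp1-/- HE1 replicate 1.

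**Figure D1:**
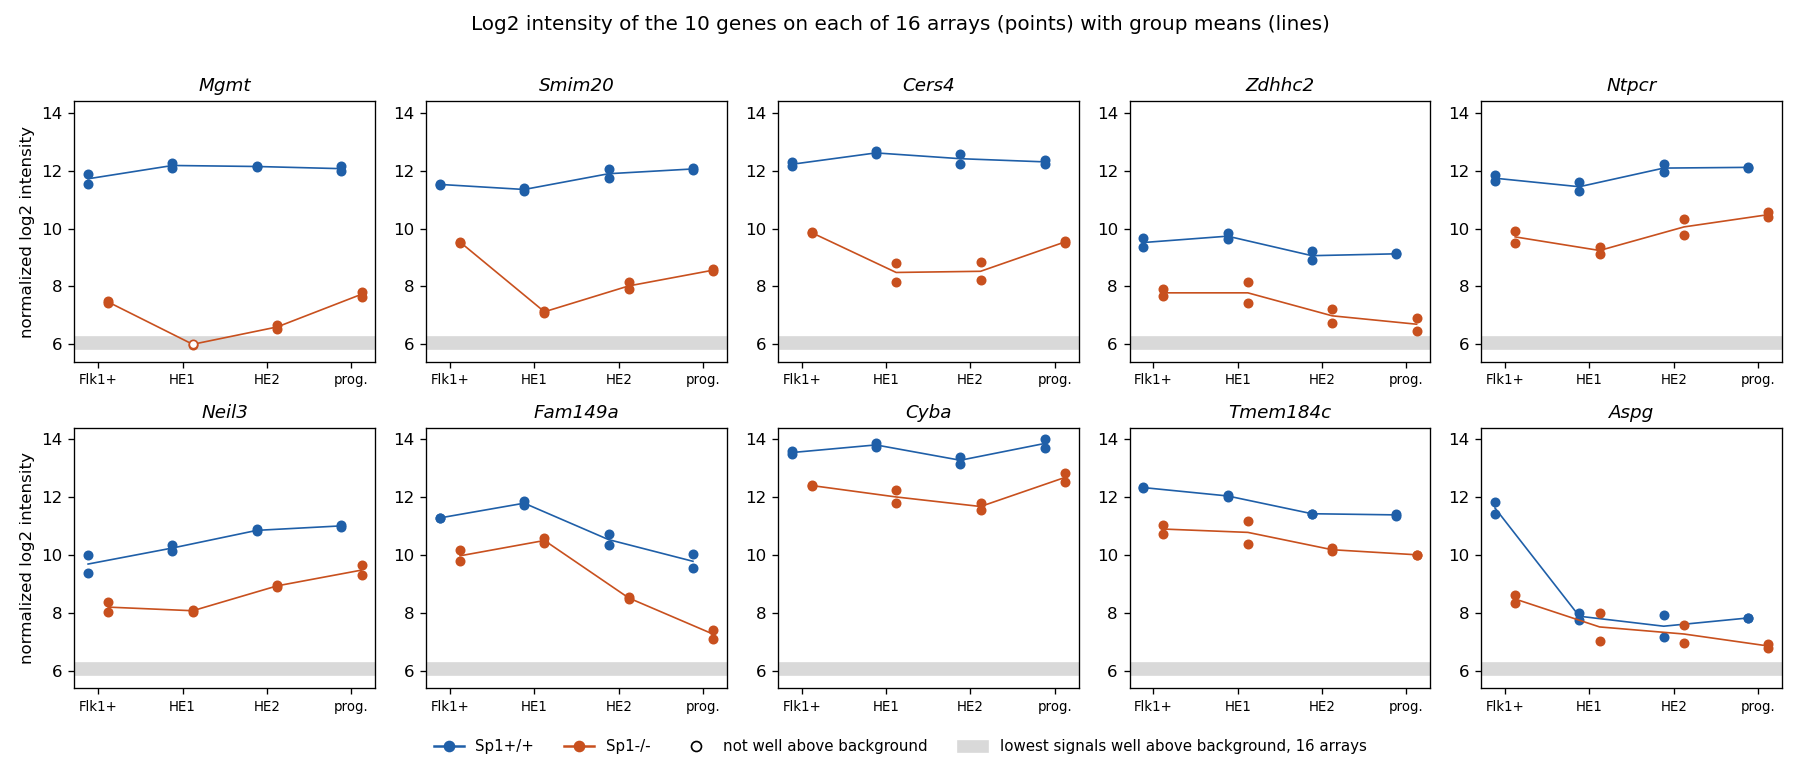
Normalized log2 intensity (y axis) of the 10 genes in Flk1+ cells, HE1, HE2 and progenitors (x axis), with a point for each of the 16 arrays, a line through the means of 2 arrays, open points for spots not well above background and a gray band for the lowest signals well above background (5.85 to 6.25). The Sp1-/- points lie below the Sp1+/+ points of the same population for 9 genes, those of Mgmt reach the band in HE1, and those of Aspg overlap in HE1 and HE2.

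Mgmt had the largest drop. Its log2 intensity in Sp1+/+ cells was 11.55 and 11.90 (Flk1+), 12.11 and 12.26 (HE1), 12.17 and 12.13 (HE2) and 12.17 and 11.98 (progenitors). On the Sp1-/- arrays it was 7.50 and 7.42, 5.99 and 6.01, 6.54 and 6.66, and 7.82 and 7.64. The genotypes were far apart in every population, and the Sp1-/- HE1 spots were not well above background on either array. The drop was 19.2-fold in Flk1+ cells (log2 difference -4.27, standard error 0.12), 46.9-fold in HE2 (-5.55) and 20.3-fold in progenitors (-4.35). In HE1 Mgmt was at least 70.8-fold lower, a bound set by the background, with a measured log2 difference of -6.19. By measured values it ranked first by mean drop among the 83 genes called lower in all 4 populations.

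Smim20 ranked next in that order. In Sp1+/+ cells its log2 intensity was 11.54 and 11.52 (Flk1+), 11.41 and 11.30 (HE1), 12.06 and 11.74 (HE2) and 12.04 and 12.09 (progenitors). On the Sp1-/- arrays it was 9.55 and 9.52, 7.10 and 7.15, 7.90 and 8.14, and 8.60 and 8.53. The replicates were close, and every Sp1-/- array lay below every Sp1+/+ array. The drop was 3.99-fold in Flk1+ cells (log2 difference -2.00, standard error 0.11) and 18.8-fold in HE1 (-4.23). It was 14.7-fold in HE2 and 11.3-fold in progenitors.

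Cers4 had the largest mean drop of the genes on chromosome 8. Its log2 intensity in Sp1+/+ cells was 12.16 and 12.29 (Flk1+), 12.57 and 12.67 (HE1), 12.25 and 12.59 (HE2) and 12.38 and 12.24 (progenitors). In Sp1-/- cells it was 9.88 and 9.84, 8.17 and 8.80, 8.22 and 8.83, and 9.51 and 9.57. The Sp1-/- arrays of HE1 and HE2 were less close to each other, but all 8 lay far below the Sp1+/+ arrays. The log2 difference was -2.37 (Flk1+), -4.14 (HE1), -3.90 (HE2) and -2.77 (progenitors) with a standard error of 0.22, which is 5.15-fold to 17.6-fold.

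Neil3 and Ntpcr were each lower in all 4 populations. Neil3 measured 9.37 and 10.00 (Flk1+), 10.34 and 10.14 (HE1), 10.82 and 10.88 (HE2) and 10.98 and 11.03 (progenitors) in Sp1+/+ cells. In Sp1-/- cells it measured 8.02 and 8.37, 8.04 and 8.10, 8.89 and 8.97, and 9.30 and 9.65. The genotypes did not overlap within any population, although the Sp1-/- progenitor value of 9.65 was above the lowest Sp1+/+ Flk1+ value. The drop of Neil3 was 2.81-fold to 4.50-fold (standard error 0.19 on the log2 scale). For Ntpcr the Sp1+/+ arrays ran from 11.29 to 12.24 and the Sp1-/- arrays from 9.11 to 10.56, so all 8 lay lower. Its drop was 3.11-fold to 4.61-fold, largest in HE1 and smallest in progenitors.

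Cyba, with Tmem184c, had a mean drop near the lower end of the 9 genes. In Sp1+/+ cells it measured 13.49 and 13.59 (Flk1+), 13.74 and 13.87 (HE1), 13.15 and 13.40 (HE2) and 13.71 and 14.00 (progenitors). In Sp1-/- cells it measured 12.43 and 12.37, 11.78 and 12.23, 11.56 and 11.79, and 12.84 and 12.52. The genotypes did not overlap in any population. The drop was 2.20-fold in Flk1+ cells (log2 difference -1.14, standard error 0.17), 3.48-fold in HE1, 3.03-fold in HE2 and 2.26-fold in progenitors. A further Cyba probe gave 2.46-fold, 3.54-fold, 2.53-fold and 2.01-fold.

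Tmem184c had the most even drop, between 2.37-fold and 2.70-fold. Its Sp1+/+ arrays ran from 11.34 to 12.35 and its Sp1-/- arrays from 10.00 to 11.17, with no overlap. Only in Sp1-/- HE1 were its replicates far apart, at 11.17 and 10.39, and without replicate 2 of that group the log2 difference in HE1 was -0.87 and was no longer called. Its other probe gave 2.09-fold to 2.30-fold. Zdhhc2 ran from 8.90 to 9.85 on the Sp1+/+ arrays and from 6.47 to 8.14 on the Sp1-/- arrays. Its drop was 3.34-fold in Flk1+ cells, 3.89-fold in HE1, 4.23-fold in HE2 and 5.41-fold in progenitors. All Zdhhc2 and Tmem184c spots were well above background.

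Fam149a had measured drops between 2.45-fold and 5.74-fold. In Sp1+/+ cells Fam149a measured 11.28 and 11.28 (Flk1+), 11.73 and 11.85 (HE1), 10.33 and 10.73 (HE2) and 10.02 and 9.54 (progenitors). In Sp1-/- cells it measured 9.78 and 10.16, 10.57 and 10.43, 8.56 and 8.46, and 7.10 and 7.42. Within a population the genotypes did not overlap, while across populations they did. The drop was 2.48-fold in Flk1+ cells (log2 difference -1.31, standard error 0.19), 2.45-fold in HE1, 4.06-fold in HE2 and 5.74-fold in progenitors. A dimmer Fam149a probe was also lower, by 2.05-fold and 2.73-fold in Flk1+ cells and HE1. In HE2 and progenitors that probe was not well above background on any Sp1-/- array, so that it was at least 2.41-fold and at least 1.80-fold lower.

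Aspg stood apart. In Sp1+/+ cells it measured 11.84 and 11.41 (Flk1+), 7.76 and 8.00 (HE1), 7.16 and 7.91 (HE2) and 7.81 and 7.83 (progenitors). In Sp1-/- cells it measured 8.35 and 8.60, 7.03 and 7.99, 7.56 and 6.97, and 6.79 and 6.91. The genotypes were separate in Flk1+ cells and progenitors, and overlapped in HE1 and HE2. The drop was 8.88-fold in Flk1+ cells (log2 difference -3.15, standard error 0.32), while the log2 differences in HE1, HE2 and progenitors were -0.37, -0.27 and -0.97, the last of which was called under the other background treatments given above. The value in HE1 was 0.11 without Sp1-/- HE1 replicate 1, and that in HE2 was 0.11 without Sp1+/+ HE2 replicate 2 and 0.03 without Sp1-/- HE2 replicate 2. Aspg was well above background on all 16 arrays.

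**Figure D2:**
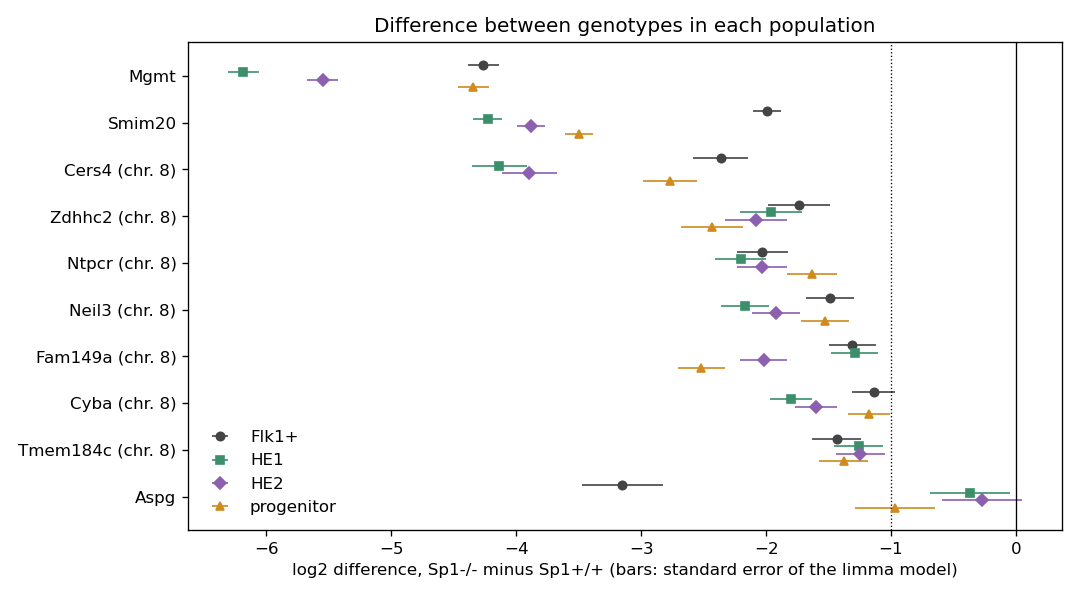
Log2 difference, Sp1-/- minus Sp1+/+ (x axis), of each gene (y axis) in the 4 populations, from 2 arrays per group, with bars for the standard error of the limma model, a solid line at 0 and a dotted line at the 2-fold threshold of -1. All points lie left of the dotted line except those of Aspg in HE1 (-0.37), HE2 (-0.27) and progenitors (-0.97), and the points of Mgmt (in HE1 as measured, at the background) and Smim20 spread over 1.92 and 2.24 log2 units.

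Every Sp1-/- array lay below every Sp1+/+ array, over all populations together, for 7 of the 10 genes, which was also so for 339 genes or 0.913% of those tested. Within each population the 2 Sp1-/- arrays lay below the 2 Sp1+/+ arrays for 10, 9, 9 and 10 of the genes from Flk1+ cells to progenitors. For all genes tested those shares were 23.8%, 22.1%, 21.3% and 28.4%. In all 4 populations it held for 9 of the 10, against 5.46% of all genes. From the smallest to the largest drop among the populations, Tmem184c varied by 0.19 log2 units, Ntpcr, Cyba, Neil3 and Zdhhc2 by 0.57 to 0.70, Fam149a by 1.23 and Mgmt, Cers4 and Smim20 by 1.77 to 2.24, with Mgmt in HE1 taken as measured. Whether the drops of a gene differ between populations was not tested, because the genes were chosen on them.

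The course along differentiation was not used to choose the genes, and was tested within each genotype and thus within 1 slide. It rests on the same array values as the contrast that chose the genes, so its p-values are not independent of that choice. For counts at an unadjusted p under 0.05, here and below, the share of all genes was not counted, so they are not read as many or few. From Flk1+ cells to HE1 in Sp1+/+ cells, 1 of the 10 genes fell (3.9% of all genes tested did) and 0 rose (4.66%), with 3 rises at an unadjusted p under 0.05. That gene was Aspg, which fell 13.4-fold (log2 change -3.75, standard error 0.32, limma adjusted p = 8.68e-06). Its fall rests on the Sp1+/+ Flk1+ arrays that also gave its call between the genotypes. The log2 changes of the remaining genes lay between -0.30 and 0.56. From HE1 to HE2, 1 of 10 fell (2.23% of all genes) and 0 rose (1.07%). Fam149a fell 2.40-fold (log2 change -1.26, adjusted p = 0.00197). At an unadjusted p under 0.05 but below 2-fold were 3 positive changes, of Smim20, Ntpcr and Neil3 (0.55 to 0.65), and 3 negative ones, of Zdhhc2, Tmem184c and Cyba (-0.68, -0.62 and -0.53). From HE2 to progenitors limma called 0 of 10 (0.727% of all genes fell and 1.01% rose), with 2 at an unadjusted p under 0.05, Fam149a at -0.75 and Cyba at 0.58.

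The Sp1+/+ levels of most of these genes stood in an order whose neighbors were not called apart. Neil3 stood lowest in Flk1+ cells and highest in progenitors, with means of 9.69, 10.24, 10.85 and 11.01, but no single step passed the 2-fold threshold (adjusted p = 0.0557, 0.0692 and 0.84). Mgmt stayed between means of 11.73 and 12.19, and Cers4 between 12.23 and 12.62. Tmem184c stood highest in Flk1+ cells (12.33) and lowest in progenitors (11.39), again in steps that were not called.

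In the Sp1-/- cells, 3 of the 10 genes fell from Flk1+ cells to HE1 (4.88% of all genes tested) and 0 rose (4.61%, with 1 rise at an unadjusted p under 0.05, that of Fam149a, against 6 falls). Smim20 fell 5.31-fold (log2 change -2.41, adjusted p = 1.35e-07) and Cers4 fell 2.59-fold (-1.38, adjusted p = 0.000585). Mgmt fell at least 2.68-fold, since its HE1 spots were not well above background (measured change -1.46, adjusted p = 6.89e-06). From HE1 to HE2 Fam149a was called among the 10, a fall of 3.97-fold (-1.99, adjusted p = 5.62e-05), where 3.52% of all genes fell and 2.08% rose. That count of 1 became 4 with an offset of 16 or the processed signal, 2 without background correction, 4 without Sp1-/- HE2 replicate 1 and 2 without Sp1-/- HE1 replicate 2. In the same step Smim20, Neil3 and Ntpcr had log2 changes of 0.90, 0.86 and 0.82 and Zdhhc2 and Tmem184c changes of -0.80 and -0.60, all at an unadjusted p under 0.05 but below 2-fold. Mgmt was at least 1.47-fold higher in HE2, a bound set by its HE1 spots (adjusted p = 0.00573, measured change not called). From HE2 to progenitors 3 of 10 rose (2.33% of all genes) and 1 fell (2.67%), with 5 rises and 1 fall at an unadjusted p under 0.05. Mgmt rose 2.19-fold (adjusted p = 0.000161), Cers4 2.02-fold (adjusted p = 0.00957) and Cyba 2.01-fold (adjusted p = 0.00246), and Fam149a fell 2.38-fold (adjusted p = 0.00124). The rises of Cers4 and Cyba were close to the threshold and lost their call when 1 array was left out, at log2 changes of 0.71 and 0.89 without Sp1-/- HE2 replicate 1, 0.985 (Cers4) without progenitor replicate 2 and 0.845 (Cyba) without progenitor replicate 1. With the mean over probes Cyba (0.925) and Fam149a (-0.7275) were not called.

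Of the 10 genes, 7 lie on chromosome 8, which are Cers4, Zdhhc2, Ntpcr, Neil3, Fam149a, Cyba and Tmem184c. Mgmt lies on chromosome 7, Smim20 on chromosome 5 and Aspg on chromosome 12. Chromosome 8 as a whole was lower in Sp1-/- cells. Over its 974 tested genes outside the set, the median log2 difference was -0.20 (Flk1+), -0.22 (HE1), -0.19 (HE2) and -0.21 (progenitors), the lowest of 21 chromosomes in each population. Chromosome 11 came next, at -0.07, -0.05, -0.08 and -0.11. Between 68.9% and 72.1% of the chromosome 8 genes were below 0. Centered on each gene's mean over the arrays, the median of chromosome 8 was 0.06 to 0.12 on all 8 Sp1+/+ arrays and -0.13 to -0.07 on all 8 Sp1-/- arrays, with no overlap.

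**Figure D3:**
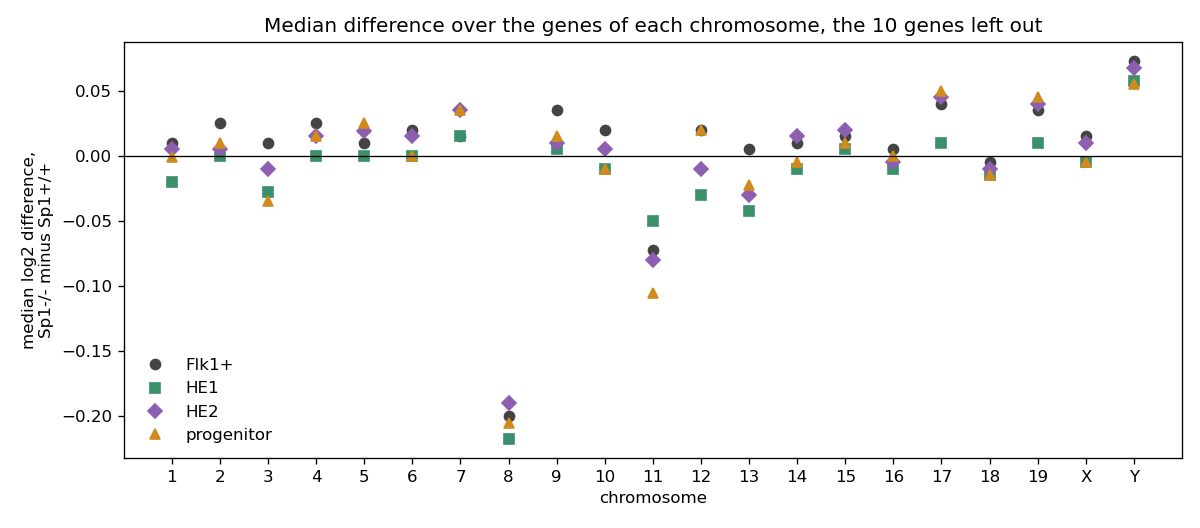
Median log2 difference, Sp1-/- minus Sp1+/+ (y axis), over the tested genes of each chromosome (x axis), without the 10 genes described, with a symbol for each of the 4 populations. Chromosome 8 lies at -0.22 to -0.19 in all 4 populations and chromosome 11 at -0.11 to -0.05, below the other chromosomes in each population.

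Among genes well above background on both Sp1+/+ arrays of a population, the median of chromosome 8 was -0.27, -0.34, -0.31 and -0.29 from Flk1+ cells to progenitors. That of the other chromosomes lay between -0.03 and 0.01. This filter used the Sp1+/+ arrays alone, which can favor genes that are lower in Sp1-/- cells. With a background filter open to both genotypes the median of chromosome 8 was -0.24, -0.28, -0.255 and -0.25. The 7 genes lay far below, with differences from the median under the Sp1+/+ filter between -0.87 (Cyba in Flk1+ cells) and -3.80 (Cers4 in HE1). Under that filter the lower quartile of chromosome 8 was -0.58 to -0.51, and each of the 7 genes lay below it. Because the genes were chosen for their drops, both comparisons are a description and no test. Of the 83 genes called lower in all 4 populations, 69 have a chromosome, and 10 or 14.5% of these lie on chromosome 8, which holds 4.88% of the tested genes with a chromosome. Of those 10, 7 are genes described here.

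**Figure D4:**
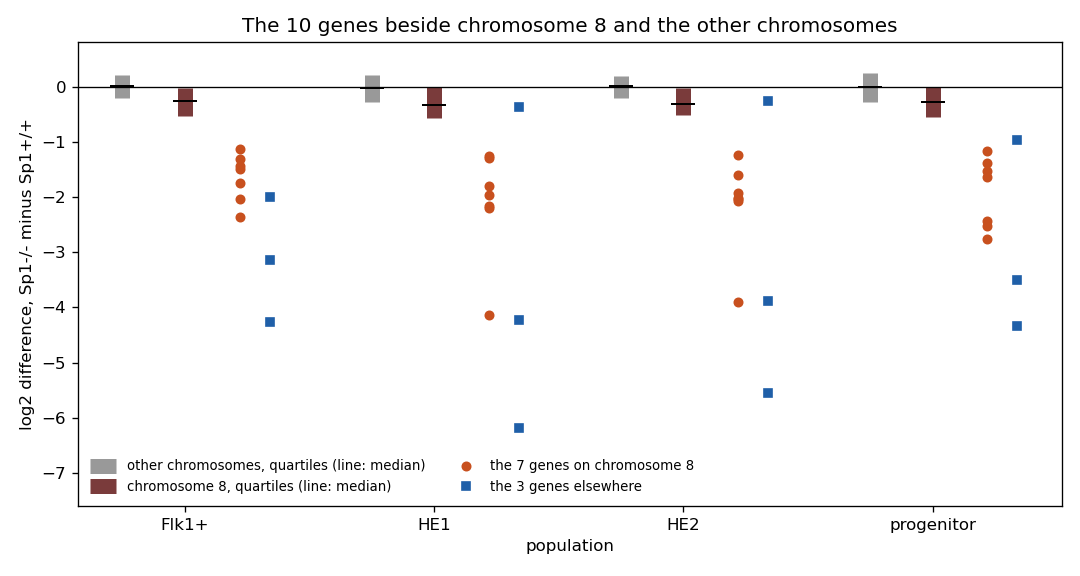
Log2 difference, Sp1-/- minus Sp1+/+ (y axis), in each population (x axis), with a point for each of the 10 genes. Bars run from the lower to the upper quartile, with a line at the median, for genes well above background on both Sp1+/+ arrays of the population. The bars of chromosome 8 are centered at -0.34 to -0.27, and all 7 points of genes on chromosome 8 lie at -1.14 or lower.

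The 3 nearest tested genes on each side of a member, 60 in all, gave the surroundings. None of them was called in all 4 populations, where 0.223% of all genes tested were called lower, so that is not read as a result. Of the 42 on chromosome 8, 35, 24, 31 and 32 had a log2 difference below 0 from Flk1+ cells to progenitors. Over chromosome 8 without the 10 genes 72.1%, 70.5%, 71.9% and 68.9% were below 0. Called lower were 1, 0, 0 and 2 of the 42, where 3.70%, 3.39%, 3.39% and 6.78% of chromosome 8 were. Called higher were 0, 1, 0 and 0, where 0.775%, 0.969%, 0.775% and 1.5% of all genes were. Of the 18 on other chromosomes, 6, 7, 12 and 9 were below 0, against 48.6%, 52.2%, 49.7% and 50.3% over all chromosomes. Mgmt lies between Mki67 (0.30, -0.51, -0.05 and 0.35 from Flk1+ cells to progenitors) and Ebf3 (0.63, -0.33, -0.26 and 0.04). Smim20 lies between Sel1l3 and Rbpj (0.56, -0.28, -0.28 and -0.35), a transcription factor of the Notch pathway. Cers4 lies between Ccl25 (-0.50, -0.98, -0.96 and -0.95) and Zfp958 (0.27, 0.395, 0.30 and -0.215). Fam149a lies between Cyp4v3 (-0.97, -0.97, -0.68 and -0.86) and Tlr3 (-0.07, -0.805, -0.28 and -0.165). Ccl25 and Cyp4v3 approached the 2-fold threshold without a call. Pcnx2 beside Ntpcr was above 0 in all 4 populations (0.32, 0.275, 0.34 and 0.895). Vegfc beside Neil3 was called higher in HE1 (1.265) and lower in progenitors (-1.04). The drops of the 10 genes were larger than those of the gene next to them on either side in every population, apart from Aspg in HE1, HE2 and progenitors, where Kif26a differed by -0.88, -1.78 and -1.39. The 10 genes were chosen for their drops and their neighbors were not, so this is a description and no test.

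Functional relatives of the genes, from lists of the same pathways, are given beside the shares of all genes. Of all genes tested, 0.867%, 1.13%, 1.17% and 2.6% were called lower from Flk1+ cells to progenitors, and 0.775%, 0.969%, 0.775% and 1.5% higher. At such shares a short list may hold no call, so a count of 0 is not read as a result. Of 17 genes of base excision and direct repair, beside Mgmt and Neil3, limma called 0 in any population, and 5, 5, 11 and 5 of them were at an unadjusted p under 0.05. The share of all genes at that p was not counted, so such counts are not read as many or few. The medians of these lists are given against an all-gene median of 0.01 to 0.02, and for the repair genes they were 0.03, -0.10, -0.18 and 0.02. Of 18 tested genes of cytochrome c oxidase assembly 0 were called by limma (5, 6, 5 and 2 at an unadjusted p under 0.05, with medians -0.11, -0.13, -0.13 and -0.09). Of 13 genes of ceramide and sphingolipid synthesis, Degs1, the dihydroceramide desaturase, was lower in HE2 (-1.21, limma adjusted p = 0.000157), where 1.17% of all genes were called lower. Cers5 was lower in progenitors (-1.13, limma adjusted p = 0.000493), where 2.6% of all genes were. Of Tmem184a, Tmem184b and Fam149b, close relatives of the less known genes, limma called 0 (1 in each population at an unadjusted p under 0.05). Of 23 DHHC palmitoyltransferases, Zdhhc14 was higher in progenitors (1.40, limma adjusted p = 0.000667), where 1.5% of all genes were called higher.

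The NADPH oxidase genes, whose products work with Cyba, went the other way where they were called. Of 12 genes 0 were called lower, and 0, 1, 4 and 3 were called higher from Flk1+ cells to progenitors, where 0.775%, 0.969%, 0.775% and 1.5% of all genes were. Rac2 was higher in HE1, HE2 and progenitors (1.11, 1.80 and 1.57, adjusted p = 0.0193, 0.00161 and 0.00167). Ncf4 was higher in HE2 (1.5, adjusted p = 0.0128) and progenitors (2.16, adjusted p = 0.000699), Noxo1 in the same populations (1.00 and 1.15), and Ncf1 in HE2 (1.70, adjusted p = 0.000108). Noxo1 differed by nearly as much in Flk1+ cells (0.91) and HE1 (0.94), just below the 2-fold threshold. The list's medians stayed between -0.04 and 0.10. Cybb, the catalytic partner of Cyba in phagocytes, was well above background on 5 of the 16 arrays and differed by -0.08 to 0.00. The blood marker Ptprc was also higher in Sp1-/- HE2 (1.49) and progenitors (1.28), and the summed log2 intensity of the 4 blood markers was 43.66 against 38.83 in HE2 and 48.27 against 45.30 in progenitors. The part of blood cells in these values was not tested. Of 5 genes of asparagine metabolism, Asns, which makes asparagine, was higher in Flk1+ cells (1.04, limma adjusted p = 0.00804) and progenitors (1.48, limma adjusted p = 0.000445). Of all genes 0.775% and 1.5% were called higher there.

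The genes whose values were most like the mean course of the 10 genes over the 16 arrays, by Pearson's r on values centered per gene, were Sp1 (0.985), Hddc2 (0.980), Zfp979 (0.980), Fggy (0.979) and Cyp4f17 (0.977). The arrays share genotype and slide, so r is a description. None of these lies on chromosome 8. Fggy, a carbohydrate kinase, had log2 differences of -2.53, -2.90, -3.53 and -3.51 from Flk1+ cells to progenitors, in the size range of Smim20. Within the set, r with that mean was highest for Cers4 (0.981) and Mgmt (0.977) and lowest for Fam149a (0.684) and Aspg (0.525). Each of the 10 genes is itself part of that mean, unlike the genes outside the set. Values were centered and not scaled, so genes with large drops weigh more in it.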

How the data were processed

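RNA of 16 samples was measured on one-color Agilent arrays, 2 per group. The authors deposited scanner files with the intensity and background flags of each spot, extracted with Feature Extraction 10.7.3.1 per the file headers, and a table of normalized log2 values. The log2 values deposited by the authors were matched by limma's normexp correction at an offset of 50 with quantile normalization to within 0.005, whereas the methods name an offset of 16 (largest difference 1.63). The offset compresses differences of dim spots, which have a floor of 5.65. Array column medians were 6.93 to 6.94. Precision is limited by the number of arrays.

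Probes were named through their RefSeq accession in a gene table of GRCm38.p6 (20865 of 37932 target names by accession, 12 by symbol or synonym). Of 55681 probes, 55595 reached log2 6 on at least 1 array, and the brightest probe stood for a gene. A limma model (R 4.3.3, limma 3.58.1) with 8 groups and 8 residual degrees of freedom gave all contrasts, and adjusted p is Benjamini-Hochberg over 37149 genes. At least N-fold means a bound against the lowest signal well above background on the array, or against the measured value where that is higher. This limit is not sharp, since spots above it can still lack the flag. The script was tested on simulated data. Named genes were the 10 genes with all 13 probes, Sp1, up to 4 called genes per list of relatives, the next gene on each side, and the 5 most alike genes. The genes and lists were chosen with earlier results of these data known. Markers of gates, endothelium, blood, pluripotent, cardiac and fibroblast cells were read.

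Alternatives were an offset of 16, no background correction, the processed signal scaled to the 75th percentile, other filters, the mean over probes, fewer arrays, a replicate block and an adjusted p of 0.05.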

Additional observations from a re-analysis of the deposited data

Results flagged for a closer look

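From Flk1+ cells to HE1, both arrays of a genotype moved one way in Sp1+/+ cells and the opposite way in Sp1-/- cells for 3 of the 10 genes. The log2 change of Mgmt was 0.46 in Sp1+/+ cells and a fall of at least 2.68-fold in Sp1-/- cells, a bound because its HE1 spots were not well above background (measured -1.46). The log2 change of Cers4 was 0.395 in Sp1+/+ and -1.375 in Sp1-/- cells, and that of Cyba 0.265 and -0.395. The difference between the genotypes was not tested, because the genes were chosen on the contrast of the genotypes. Of these changes only the falls of Mgmt and Cers4 in Sp1-/- cells were called.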

How the results depend on the processing

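The 9 genes called lower in Sp1-/- cells in all 4 populations kept that direction under every alternative run, and members called lower numbered 10 (Flk1+), 8 to 9 (HE1), 9 (HE2) and 9 to 10 (progenitors). The 10 in progenitors, with Aspg, arose with an offset of 16 under either minimum, without background correction and with the processed signal. The count of 8 arose without Sp1-/- HE1 replicate 2, where Tmem184c was at -0.87. Aspg ran from -0.85 to 0.11 in HE1 and from -0.645 to 0.105 in HE2 when 1 array was left out. Its value in HE1 was 0.11 without Sp1-/- HE1 replicate 1. In HE2 it was 0.105 without Sp1+/+ HE2 replicate 2 and 0.025 without Sp1-/- HE2 replicate 2. The cause of each shift given here was not tested.

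The median of chromosome 8 stayed below 0 in all 4 populations under every alternative run for it. From Flk1+ cells to progenitors it was -0.2325, -0.2547, -0.2365 and -0.2385 with an offset of 16, and -0.3017, -0.3226, -0.2924 and -0.2909 with that offset's own minimum, chosen after seeing the data. It was -0.3549, -0.2883, -0.2829 and -0.2386 with the processed signal, where the median of all genes was -0.01, 0.19, 0.08 and 0.09. With a filter for genes well above background it was -0.24, -0.28, -0.255 and -0.25. Without background correction it was -0.2221 in Flk1+ cells and -0.2219 in HE2. With 1 array left out it ran from -0.21 to -0.195, from -0.235 to -0.185, from -0.215 to -0.19 and from -0.2225 to -0.17.

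With the processed signal 592, 646, 727 and 1630 genes were called lower, and 43.6%, 31.8%, 42.1% and 55.0% of all calls were lower, against 52.8%, 53.7%, 60.2% and 63.3% with the deposited values. Stage steps then called 4856, 2040 and 1293 genes in Sp1+/+ and 5318, 3406 and 3598 in Sp1-/- cells, against 3178, 1228, 647, 3528, 2080 and 1858. Genes called lower in HE1 ran from 296 to 747 with 1 array left out (747 without Sp1-/- HE1 replicate 1). Genes called from HE2 to progenitors in Sp1+/+ cells ran from 397, without progenitor replicate 2, to 972, without HE2 replicate 1. Members called from HE1 to HE2 in Sp1-/- cells numbered 4 with an offset of 16, under either minimum, 2 without background correction, 4 with the processed signal, and 1 to 4 with 1 array left out (4 without Sp1-/- HE2 replicate 1, 2 without Sp1-/- HE1 replicate 2). From HE2 to progenitors in Sp1-/- cells, 2 members were called with the mean over probes, where Cyba and Fam149a were not, and 2 to 4 with 1 array left out (2 without Sp1-/- HE2 replicate 1). Relatives called ran from 1 to 2 in Flk1+ cells, 0 to 3 in HE1 (3 without Sp1-/- HE1 replicate 1, 0 without its replicate 2 or without Sp1+/+ HE1 replicate 2), 4 to 5 (HE2) and 6 to 9 (progenitors). The 2 in Flk1+ cells arose without Sp1+/+ Flk1+ replicate 1, and with an offset of 16 the number in progenitors was 9.

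Replicate numbers were not used to pair the samples in the main model, and whether they mark shared batches was not settled. Deviations of equally numbered arrays correlated at -0.152 to 0.503 in Sp1+/+ and -0.094 to 0.268 in Sp1-/- cells. The correlation was over 0.1 for 2 of 6 pairs in Sp1+/+ and 3 of 6 in Sp1-/- cells. With a replicate block within genotype 329, 418, 433 and 970 genes were called lower, against 322, 418, 436 and 966 without it. All other counts and medians moved by less than 1.5 times or the spread between replicates. Arrays limit precision by their number, and spots near the floor understate a drop.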
